A study of Mus musculus with 2 samples.

Results

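The interleukin-2 (IL-2) receptor family was followed through single γδ T cells of the mouse lung. The 6 genes examined were Il2ra, Il2rb, Il2rg, Il4ra, Il21r and Il15ra, taken by symbol from the 32285 genes of the count matrices. All 6 had unique molecular identifiers (UMIs, 1 per captured transcript) in both libraries. The WT library held Vγ1- γδ T cells sorted from the lungs of C57BL/6NCrl mice. The KO library held Vγ1+ T cells sorted from the lungs of B6.Cg-Tcrgtm1lku(B6.Vg4-/-Vg6-/-) mice, in which the Vγ4 and Vγ6 chains are deleted. All mice were 5-7 weeks old and uninfected, and how many were pooled is not given in the sources used here. With 1 library per group no test across replicates can be made, and sort, genotype, strain and library cannot be told apart.

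The IL-2 receptor is built from 3 chains. Il2rb and Il2rg encode the β chain (CD122) and the common γ chain, which carry the signal of IL-2 and of IL-15. Il2ra encodes the α chain (CD25), which raises the affinity for IL-2 and does not signal itself, and Il15ra encodes the α chain that binds IL-15 and presents it to neighbouring cells. Il4ra and Il21r encode the chains that pair with the common γ chain to read IL-4 and IL-21. All of these receptors act through the kinases Jak1 and Jak3, and IL-2 and IL-15 mainly through Stat5a and Stat5b. In mice γδ T cells are commonly divided into IL-17 producers (γδ17) and interferon-γ producers (γδ1), and CD122 is a familiar marker of the latter.

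After the cell filter 2505 WT and 6634 KO cells remained, with medians of 3288 and 3521 UMIs per cell, and 23 barcodes occurred in both libraries. Tcrg-V6 had 2906 UMIs in the WT library and none in the KO library, and Tcrg-V1 stood at 28.0 CPM (UMIs of a gene per 1000000 UMIs of the cells) in WT and 210.3 CPM in KO, the order that the labels give. Tcrg-V4 did not follow its label in the KO library, where it had 1291 UMIs and 49.8 CPM beside 79.7 CPM in WT. The library is therefore called KO-labelled from here on, and its cells with Tcrg-V4 UMIs are given apart. A UMI of the T cell genes Trdc, Cd3e, Cd3g or Cd3d was present in 90.9% of the WT cells and in 96.5% of the KO-labelled cells. Cells with none of these and at least 2 UMIs of B cell or of myeloid genes, called non-T cells, numbered 60 in WT and 32 in KO-labelled, and their shares are given as the background.

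Cells were grouped by single transcripts. Tmem176b, which encodes a membrane protein found in type 17 lymphocytes and in myeloid cells, had a UMI in 1176 WT and 1522 KO-labelled cells. Ly6c2, which encodes the surface protein Ly6C of memory-like T cells and monocytes, had a UMI in 458 and 1617 cells. Only 54 and 169 cells had both, so cells were split into those with only Tmem176b (1122 WT and 1353 KO-labelled), those with only Ly6c2 (404 and 1448) and those with neither (925 and 3664). Checked on lists of 8 type 17 and 8 type 1 genes, the only-Ly6c2 cells of WT were at least 2-fold lower than the only-Tmem176b cells in 8 type 17 genes and at least 2-fold higher in 8 type 1 genes. In the KO-labelled library 7 of each list passed 2-fold in the same direction. The median log2 ratio was -5.59 in WT and -5.54 in KO-labelled over the type 17 genes and 4.35 and 2.79 over the type 1 genes, where the median of all genes was -0.0042 and 0.0034. Cells were also grouped by Tcrg-V transcripts, as those in which 1 Tcrg-V gene had UMIs and no other did (520 Tcrg-V6 and 410 Tcrg-V4 cells in WT; 2128 Tcrg-V1 and 364 Tcrg-V4 cells in KO-labelled). A cell without a UMI can still express the gene, and the only-Tmem176b cells were deeper (medians 3496 and 4177 UMIs) than the cells with neither (2581 and 3207), so shares of cells were compared after every cell was thinned to 2000 UMIs.

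The genes that set these groups apart were Il2ra and Il21r, which moved in opposite directions, and the 250 bases before their RefSeq starts (GRCm38.p6, plus strand, just before the first exon) are therefore shown. Capitals mark the only match in each to 3 short motifs that were searched on both strands, in Il2ra the T-box half-site AGGTGT (read on the minus strand) 119 bases before the start and in Il21r the nuclear receptor half-site AGGTCA (minus strand) 127 bases before it.
Il2ra, chr2:11642542-11642791: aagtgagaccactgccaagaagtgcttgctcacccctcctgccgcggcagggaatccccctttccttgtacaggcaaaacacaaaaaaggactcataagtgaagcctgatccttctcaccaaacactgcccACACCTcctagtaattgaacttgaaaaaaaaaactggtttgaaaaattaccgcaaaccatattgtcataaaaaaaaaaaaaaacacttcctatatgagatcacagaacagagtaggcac
Il21r, chr7:125603179-125603428: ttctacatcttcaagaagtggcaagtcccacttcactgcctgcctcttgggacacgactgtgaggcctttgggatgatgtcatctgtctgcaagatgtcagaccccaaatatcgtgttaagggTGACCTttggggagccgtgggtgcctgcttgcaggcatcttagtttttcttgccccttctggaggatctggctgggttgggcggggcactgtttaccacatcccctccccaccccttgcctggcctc
AGGTGT occurred in 11.8% and AGGTCA in 14.0% of all 32851 windows of the same length, so neither string of letters was rare. The STAT motif TTCNNNGAA, found in 7.02% of windows, matched none of the 6 windows of the 5 receptor genes in the table. Among those windows AGGTGT also matched Il15ra, and AGGTCA matched Il21r alone.

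Il2ra (ENSMUSG00000026770, chr2:11642807-11693193 of GRCm38) was a gene of the Tmem176b cells. Its level in WT was 238 CPM in only-Tmem176b cells, 50.7 CPM in cells with neither and 6.86 CPM in only-Ly6c2 cells. In the KO-labelled library the same 3 levels were 221, 20.8 and 14.1 CPM. In both libraries the only-Tmem176b cells thus stood far above the rest, and the intervals of the WT and KO-labelled values overlapped there (223 to 253 and 209 to 233 CPM). The log2 ratio of only-Ly6c2 over only-Tmem176b cells was -5.12 in WT (95% interval -6.07 to -4.30, from 12 and 996 UMIs) and -3.97 in KO-labelled (-4.30 to -3.65, from 84 and 1342 UMIs). Among all genes with at least 30 UMIs, 16.4% in WT and 12.6% in KO-labelled were past 2-fold in this comparison, and only 0.466% and 0.834% of them had a lower ratio than Il2ra. With the groups formed after thinning to 2000 UMIs, the WT ratio was -3.66. As 1 of 5 receptor genes with enough UMIs, Il2ra was past 2-fold in WT, and in KO-labelled it was so together with Il21r, as 2 of 6. All intervals here cover counting error only.

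**Figure D1:**
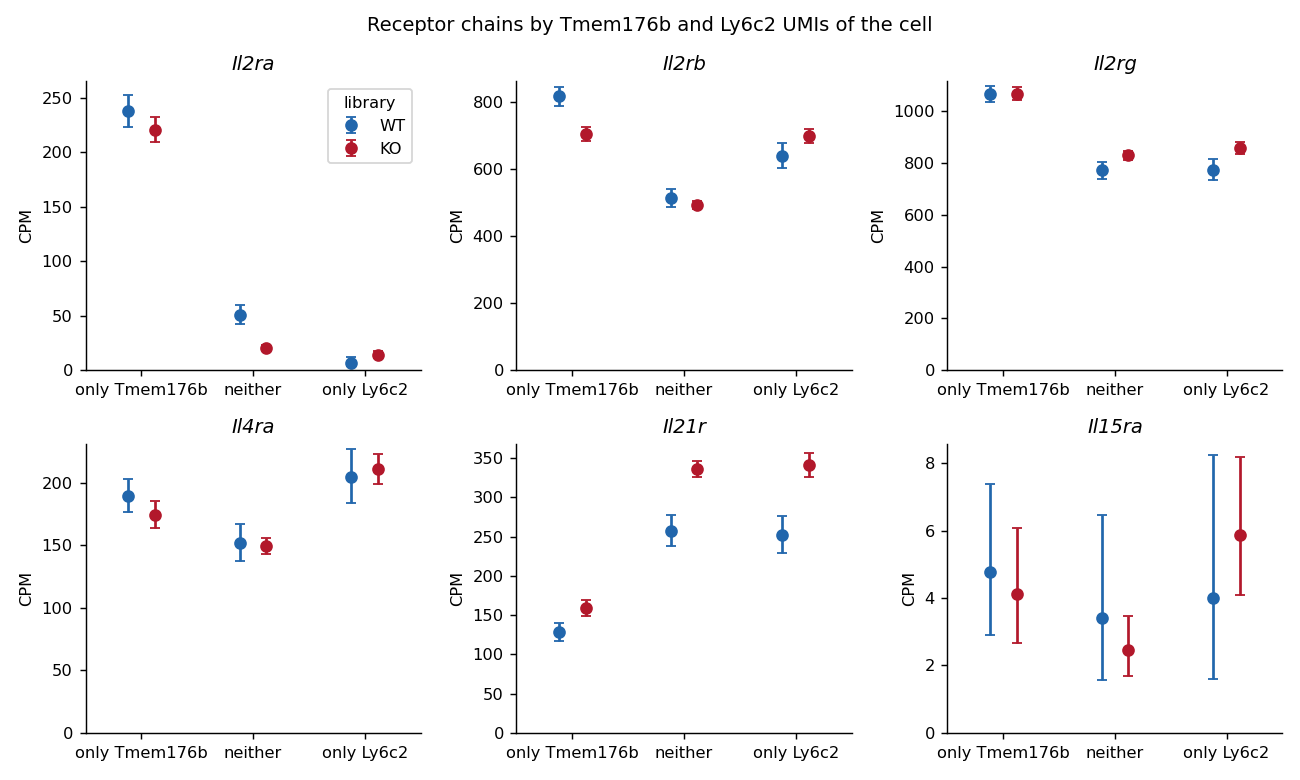
CPM of the 6 receptor genes (y axis, each panel from 0 on its own scale) in only-Tmem176b cells, cells with neither and only-Ly6c2 cells of the WT (blue) and KO (red, called KO-labelled in the text) libraries; points are CPM of summed UMIs and bars 95% Poisson intervals of the count. Il2ra falls from 238 and 221 CPM to 6.86 and 14.1 CPM from left to right, Il21r rises from 128 and 159 to 252 and 341 CPM, and Il2rb is lowest in the middle group.

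The Il2ra level was read against the number of Tmem176b UMIs. At 2000 UMIs per cell, WT cells with 0, 1, 2 and 3 or more Tmem176b UMIs had 55.8, 198, 255 and 268 CPM of Il2ra. KO-labelled cells of the same classes had 28.5, 178, 251 and 316 CPM. The largest step was between 0 and 1 UMI in both libraries, and in WT the classes of 1, 2 and 3 or more overlapped in their intervals. In KO-labelled the class of 1 UMI (154 to 205 CPM) lay below that of 2 (211 to 297 CPM), which overlapped with 3 or more. With Ly6c2 there was a single drop in WT, from 158 CPM without a UMI to 25.0 CPM with 1, and the classes of 1, 2 and 3 or more (25.9 CPM) did not differ beyond counting error. In KO-labelled the levels were 80.3, 32.5, 25.5 and 14.1 CPM, and neighbouring classes above 0 overlapped.

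**Figure D2:**
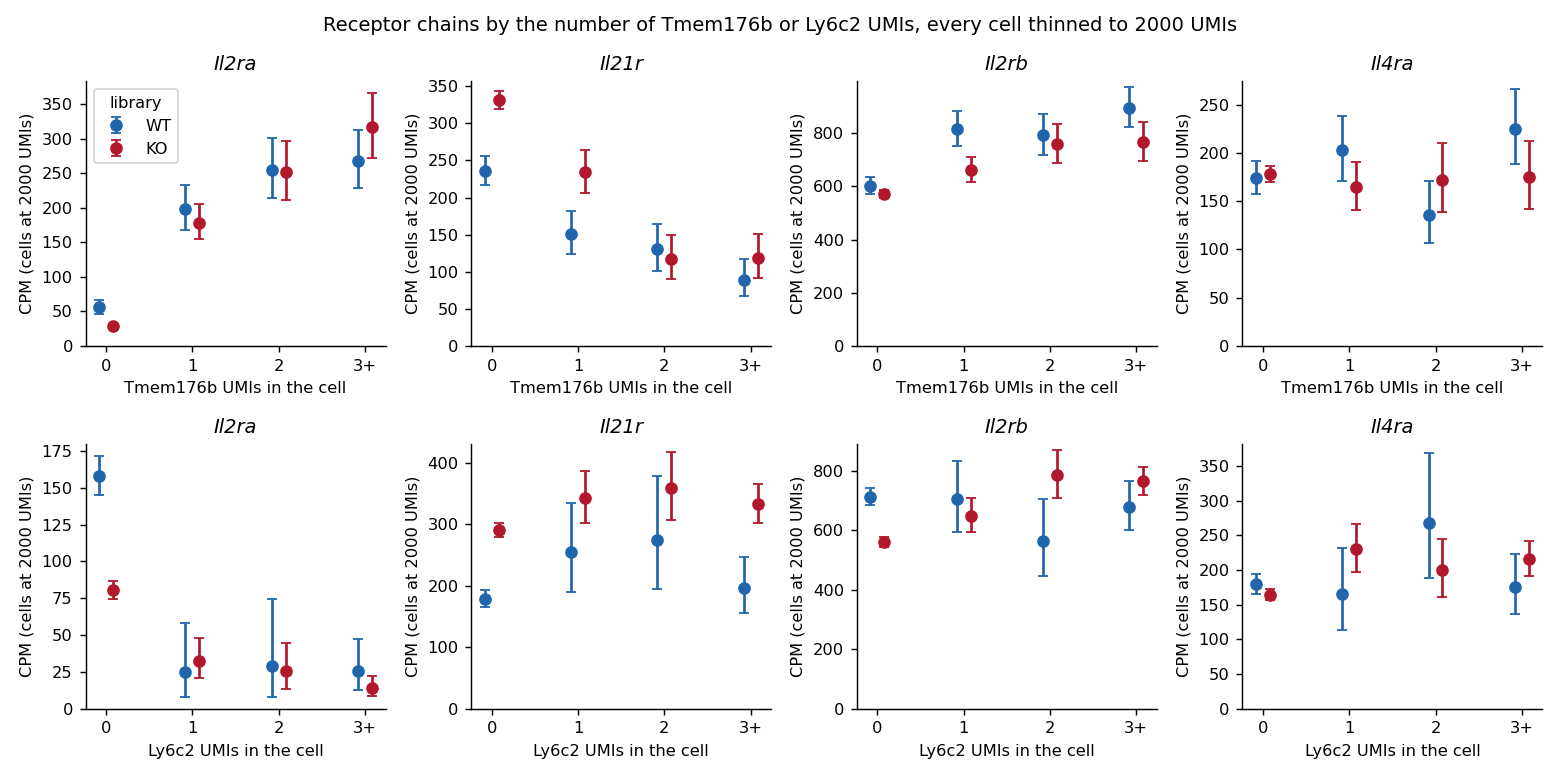
CPM of Il2ra, Il21r, Il2rb and Il4ra (y axis, from 0) in cells with 0, 1, 2 and 3 or more UMIs of Tmem176b (top) or Ly6c2 (bottom) after every cell was thinned to 2000 UMIs; blue WT, red KO (called KO-labelled in the text), bars 95% Poisson intervals. Il2ra climbs with Tmem176b from 55.8 to 268 CPM in WT and from 28.5 to 316 CPM in KO-labelled cells while Il21r declines from 236 to 89.4 and from 331 to 119 CPM.

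A minority of cells gave an Il2ra UMI even in the richest group. After thinning, 30.4% of 1060 WT and 31.8% of 1279 KO-labelled only-Tmem176b cells had one, against 2.08% and 2.28% of only-Ly6c2 cells. Without thinning the shares were 41.8% and 47.5% against 2.72% and 4.63%. Among the non-T cells, 0 of 60 in WT and 1 of 32 in KO-labelled had an Il2ra UMI, at median depths of 2534 and 2121 UMIs. After thinning it was 0 of 41 in WT, which allows a share of up to 7.32%, and 1 of 17 in KO-labelled. Of the WT cells with Il2ra, 54.7% had a single UMI and the highest had 17.

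Il2rb (ENSMUSG00000068227, chr15:78479256-78495271, minus strand) did not divide the cells the way Il2ra did. In WT it stood at 817 CPM in only-Tmem176b cells, 641 CPM in only-Ly6c2 cells and 514 CPM in cells with neither. In KO-labelled cells it stood at 706, 698 and 492 CPM. Its lowest level was in cells with neither transcript in both libraries. Within Tcrg-V4 cells of WT, however, Il2rb was 639 CPM in only-Ly6c2 cells and 627 CPM in cells with neither. That log2 ratio was 0.03 (-0.21 to 0.26), against 0.46 (0.36 to 0.56) within Tcrg-V1 cells of KO-labelled and 0.57 (0.34 to 0.81) within its Tcrg-V4 cells. For all cells the log2 ratio of only-Ly6c2 over only-Tmem176b cells was -0.35 in WT (-0.45 to -0.25). In KO-labelled it was -0.02 (-0.08 to 0.05), and the groups did not differ beyond counting error there. By Tcrg-V group the KO-labelled ratio had opposite signs, -0.11 (-0.21 to -0.01) within Tcrg-V1 cells and 0.28 (0.01 to 0.56) within Tcrg-V4 cells. After thinning, 76.9% of WT and 67.2% of KO-labelled only-Tmem176b cells had an Il2rb UMI, against 71.9% and 71.5% of only-Ly6c2 cells. In the unthinned sums, only-Tmem176b cells of the KO-labelled library held less Il2rb than those of WT (log2 ratio -0.21, -0.28 to -0.15). Of the non-T cells, 2 of 60 in WT and 0 of 32 in KO-labelled had an Il2rb UMI. After thinning it was 2 of 41 and 0 of 17, which allows a share of up to 17.6% in the latter.

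Set against cells that lack the transcript, cells with Ly6c2 held more Il2rb in the KO-labelled library. In WT they held slightly less in the unthinned sums, and no difference beyond counting error was seen at equal depth. Il2rb was 621 CPM in WT cells with a Ly6c2 UMI and 700 CPM in those without, and the log2 ratio was -0.17 (-0.26 to -0.08). The ratio was -0.06 when the mean of per-cell CPM was taken. In KO-labelled the levels were 695 and 560 CPM and the ratio 0.31 (0.26 to 0.36). The cells without Ly6c2 differed in makeup: 1122 of 2047 in WT and 1353 of 5017 in KO-labelled were only-Tmem176b cells. The part of this difference in the result was not tested.

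Il2rg (ENSMUSG00000031304, chrX:101264378-101268255, minus strand) stayed within 2-fold in each of the 12 comparisons between groups of cells. In WT its levels were 1066 CPM in only-Tmem176b, 771 CPM in neither and 773 CPM in only-Ly6c2 cells. In KO-labelled they were 1067, 828 and 856 CPM. The common γ chain was highest in only-Tmem176b cells of both libraries, and only-Ly6c2 over only-Tmem176b cells gave log2 ratios of -0.46 and -0.32. Between the libraries only-Tmem176b cells did not differ beyond counting error (95% interval of the log2 ratio -0.05 to 0.06). After thinning, between 74.8% and 84.7% of the cells of each group had a UMI. In the non-T cells 58.3% of WT and 46.9% of KO-labelled cells had one without thinning, and B cells and myeloid cells are known to express the gene.

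Il21r (ENSMUSG00000030745, chr7:125603429-125633570) was low where Il2ra was high. WT levels were 128 CPM in only-Tmem176b cells, 257 CPM in cells with neither and 252 CPM in only-Ly6c2 cells. KO-labelled levels were 159, 336 and 341 CPM. The only-Tmem176b cells stood below both other groups in each library, while cells with neither and only-Ly6c2 cells overlapped in their intervals. Within Tcrg-V4 cells of KO-labelled, however, only-Ly6c2 cells had 397 CPM and cells with neither 258 CPM (log2 ratio 0.62, 0.29 to 0.96). The same ratio was 0.04 (-0.10 to 0.17) within Tcrg-V1 cells of KO-labelled and 0.19 (-0.18 to 0.56) within Tcrg-V4 cells of WT. For all cells the log2 ratio of only-Ly6c2 over only-Tmem176b cells was 0.97 in WT (0.79 to 1.16) and 1.10 in KO-labelled (0.99 to 1.21), which lie on either side of 2-fold. The decline with Tmem176b at 2000 UMIs per cell ran from 236 CPM without a UMI to 89.4 CPM with 3 or more in WT, and from 331 to 119 CPM in KO-labelled. Thinned shares were 19.3% and 21.5% in only-Tmem176b cells and 36.7% and 42.2% in only-Ly6c2 cells, with 9.76% of 41 WT and 11.8% of 17 KO-labelled non-T cells, among which B cells are known to use this receptor.

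Il4ra (ENSMUSG00000030748, chr7:125552120-125579474) lies 23954 bases before Il21r on the same strand, yet it was only weakly divided by the same transcripts. In WT it had 189 CPM in only-Tmem176b, 152 CPM in neither and 205 CPM in only-Ly6c2 cells. In KO-labelled it had 175, 149 and 211 CPM. Cells with neither transcript were lowest in both libraries, and only-Ly6c2 cells exceeded only-Tmem176b cells beyond counting error in KO-labelled alone (log2 ratio 0.27, 0.15 to 0.39, against 0.11, -0.07 to 0.29 in WT). The difference between those 2 ratios was 0.16 (-0.05 to 0.38).

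Il15ra (ENSMUSG00000023206, chr2:11705290-11734317), which starts 12096 bases after the end of Il2ra, was close to the limit of what could be counted. It had 39 UMIs in 36 WT cells and 94 UMIs in 85 KO-labelled cells, or 4.35 and 3.63 CPM. In WT it had 20, 9 and 7 UMIs in only-Tmem176b cells, cells with neither and only-Ly6c2 cells, and the intervals of its levels overlapped. In KO-labelled only-Ly6c2 cells had 5.88 CPM (4.10 to 8.18) and cells with neither 2.46 CPM (1.69 to 3.48), which did not overlap. The 36 WT cells with an Il15ra UMI had 410 CPM of Il2ra against 126 CPM in the rest, and the 85 KO-labelled cells 113 against 67.4 CPM.

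Taking the 5 Tcrg-V groups in order of Il2ra, Tcrg-V6 cells of WT were first with 273 CPM (250 to 297). The next 3, Tcrg-V1 cells of KO-labelled (77.8 CPM), its Tcrg-V4 cells (77.4) and the Tcrg-V4 cells of WT (76.4), did not differ beyond their intervals. In the KO-labelled library, sorted as Vγ1+, only 43.4% of cells had a Tcrg-V1 UMI. Its Tcrg-V4 group can therefore hold Vγ1+ cells whose Tcrg-V1 transcript was not captured, and is not a population known to be separate. The 84 WT cells in which only Tcrg-V1 had UMIs came last of the 5 groups with 33.3 CPM (16.6 to 59.6). The sort excluded cells by the Vγ1 protein and not by the transcript. Tcrg-V6 over Tcrg-V4 cells in WT gave a log2 ratio of 1.84 (1.55 to 2.13), and Il2ra was the only 1 of 5 receptor genes with enough UMIs that passed 2-fold, where 10.4% of all genes did. With cells grouped after thinning the ratio was 1.07.

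Il21r was lowest in the Tcrg-V6 cells of WT, which were first in Il2ra. It was highest in the Tcrg-V1 cells of WT (272 CPM) and of KO-labelled (268) and in the Tcrg-V4 cells of KO-labelled (267), which overlapped. Tcrg-V4 cells of WT followed at 219 CPM (196 to 243) and Tcrg-V6 cells at 122 CPM. The interval of the Tcrg-V4 cells of WT overlapped those of the WT Tcrg-V1 (219 to 335) and KO-labelled Tcrg-V4 cells (241 to 295). It lay below that of the KO-labelled Tcrg-V1 cells (257 to 278). Tcrg-V1 cells of KO-labelled over Tcrg-V6 cells of WT gave 1.14 (0.95 to 1.33) for Il21r and -1.81 (-1.97 to -1.65) for Il2ra, the 2 of 6 genes past 2-fold where 17.7% of genes were. Against Tcrg-V4 cells of WT, none of the 6 passed 2-fold (7.95% of genes did), and Il2ra was at 0.03 (-0.25 to 0.32). The latter moved to -0.68 when cells were grouped after thinning to 2000 UMIs. Il2rb was 854 CPM in Tcrg-V6 cells, 675 CPM in WT Tcrg-V4 cells, 600 CPM in KO-labelled Tcrg-V1 cells and 598 CPM in KO-labelled Tcrg-V4 cells, of which the last 2 overlapped.

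The Tcrg-V groups held unlike mixtures of Tmem176b and Ly6c2 cells. Of the 520 Tcrg-V6 cells 449 were only-Tmem176b and 6 only-Ly6c2, whereas of the 410 WT Tcrg-V4 cells 158 were only-Tmem176b and 93 only-Ly6c2. Within Tcrg-V6 cells, Il2ra was 296 CPM in only-Tmem176b cells and 94.0 CPM in cells with neither. Within Tcrg-V4 cells of WT it was 163 CPM in only-Tmem176b, 47.6 CPM in neither and 6.85 CPM in only-Ly6c2 cells. Within Tcrg-V1 cells of KO-labelled it was 232, 17.6 and 12.3 CPM, and within its Tcrg-V4 cells 228, 35.5 and 22.3 CPM. In each of these 4 sets of cells the only-Tmem176b group was the highest. Among only-Tmem176b cells alone, Tcrg-V6 over Tcrg-V4 cells of WT still differed by 0.86 in Il2ra (0.53 to 1.19) and by 0.21 in Il2rb (0.05 to 0.36), while Il21r did not differ beyond counting error (-0.31, -0.69 to 0.08). Il2ra was also 0.50 higher in only-Tmem176b Tcrg-V1 cells of KO-labelled than in only-Tmem176b Tcrg-V4 cells of WT (0.19 to 0.84), whereas in cells with neither transcript the same ratio was -1.44 (-2.10 to -0.72). Against Tcrg-V6 cells of WT, the Tcrg-V1 cells of KO-labelled were lower in Il2ra in both groups. That ratio was -0.35 (-0.52 to -0.18) in only-Tmem176b cells and -2.42 (-3.25 to -1.48) in cells with neither.

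**Figure D3:**
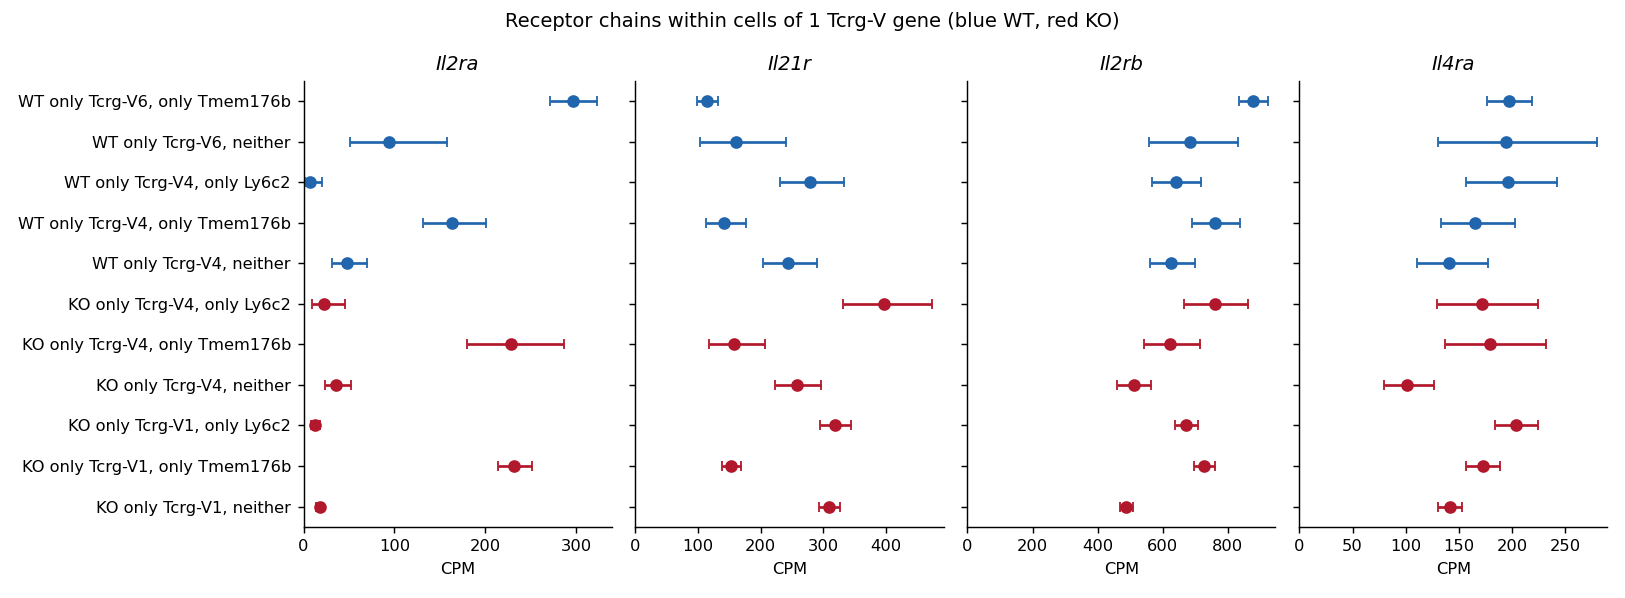
CPM (x axis, from 0) of Il2ra, Il21r, Il2rb and Il4ra in the 11 groups of at least 50 cells that combine library, Tcrg-V gene and Tmem176b or Ly6c2 UMIs (y axis); blue WT, red KO (called KO-labelled in the text), bars 95% Poisson intervals. The 4 only-Tmem176b groups hold the highest Il2ra, between 163 and 296 CPM, and the lowest Il21r, between 114 and 158 CPM.

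Between the libraries as a whole, Il2ra was 132 CPM in WT and 68.1 CPM in KO-labelled, for which the log2 ratio was -0.95 (-1.06 to -0.84). Il21r was 190 and 295 CPM, a ratio of 0.63 (0.56 to 0.71), Il2rb 681 and 596 CPM (-0.19, -0.24 to -0.15), and Il2rg, Il4ra and Il15ra did not differ beyond counting error. None of the 6 passed 2-fold, where 10.0% of 12275 genes did. Among only-Tmem176b cells the Il2ra ratio was -0.11 (-0.23 to 0.01) and that of Il21r 0.31 (0.16 to 0.47). The Il2ra levels there thus did not differ beyond counting error, and again none of the 6 passed 2-fold (7.09% of genes did). The only-Tmem176b cells of the 2 libraries were otherwise unlike. In KO-labelled 6 of 8 type 17 genes were at least 2-fold lower, with a median log2 ratio of -1.74. Of the 6 type 1 genes with enough UMIs 3 were at least 2-fold higher, with a median of 1.19. Among only-Ly6c2 cells Il21r was again higher in KO-labelled (0.44, 0.29 to 0.59). Il2ra was at 1.04 (0.16 to 2.05), from 12 and 84 UMIs, as the 1 receptor gene past 2-fold where 5.69% of genes were, and it turned to -0.16 when cells were grouped after thinning. The share of only-Tmem176b cells, which the sort can set, was 44.8% in WT and 20.4% in KO-labelled.

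Cells were also compared by the presence of a single transcript. For Tmem176b over none, Il2ra was 2.77 (2.51 to 3.03) in WT and 3.43 (3.27 to 3.61) in KO-labelled, while Il21r had 127 CPM with and 255 CPM without Tmem176b in WT and a ratio of -0.92 (-1.01 to -0.84) in KO-labelled. With Il21r just beyond the limit in WT, that put 2 of 6 genes past 2-fold in WT, where 14.1% of genes were, and 1 of 6 in KO-labelled, where 12.7% were. The median of all genes in the WT comparison was itself -0.14, and relative to it Il21r stood at -0.87. For Ly6c2 over none, Il2ra was -2.80 (-3.23 to -2.39) in WT and -1.93 (-2.18 to -1.69) in KO-labelled, the only gene of the 6 past 2-fold in either, beside 11.6% and 6.09% of all genes. Il21r was at 0.35 (0.20 to 0.50) and 0.27 (0.19 to 0.34) in that contrast, and the highest ratio in KO-labelled was that of the sparse Il15ra at 0.85 (0.22 to 1.48).

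The chains of the high-affinity receptor were looked for in the same cell. After thinning, Il2ra, Il2rb and Il2rg were all detected in 21.1% of only-Tmem176b cells of WT (18.7 to 23.7) and in 20.8% of those of KO-labelled (18.6 to 23.1). The share was 1.30% and 1.40% in only-Ly6c2 cells, and 19 of 628 and 45 of 3004 cells with neither had all 3. The signalling pair Il2rb and Il2rg without regard to Il2ra was instead spread widely, with 65.1% and 57.4% in only-Tmem176b, 56.3% and 56.7% in only-Ly6c2 and 44.1% and 41.3% in cells with neither. Cells with an Il2ra UMI held less Il21r than cells without one, 117 against 216 CPM in WT and 182 against 318 CPM in KO-labelled. Cells with an Il4ra UMI held 367 CPM of Il21r against 233 CPM in the rest of KO-labelled cells (log2 ratio 0.65), and 209 against 172 CPM in WT (0.29). Cells with a UMI of one gene are also deeper, which these sums do not remove.

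**Figure D4:**
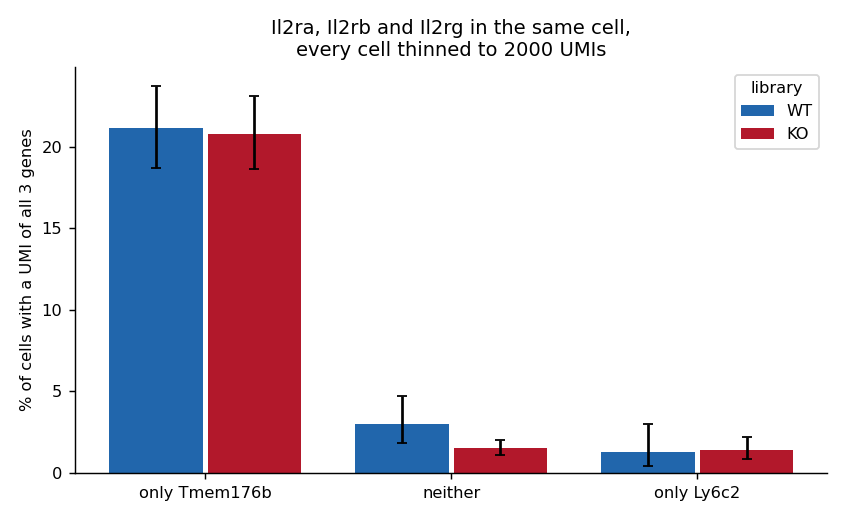
Percent of cells with a UMI of Il2ra, Il2rb and Il2rg (y axis, from 0) in only-Tmem176b cells, cells with neither and only-Ly6c2 cells after thinning to 2000 UMIs; blue WT, red KO (called KO-labelled in the text), bars 95% Clopper-Pearson intervals. The only-Tmem176b bars stand at 21.1% and 20.8% and all others at 3.03% or less.

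CD25 also marks regulatory αβ T cells and type 2 innate lymphoid cells, so their transcripts were read in the Il2ra cells. Foxp3 had 9 UMIs in WT and 14 in KO-labelled in all, Cd4 18 and 81, and Ikzf2 2751 and 10838. The shares over these genes were therefore mostly those of Ikzf2. A UMI of Foxp3, Cd4 or Ikzf2 was present in 30.6% of 592 WT cells with Il2ra and 41.1% of those without, and in 41.6% of 934 and 54.7% of the rest in KO-labelled. A UMI of Il1rl1, Areg or Hey1 was present in 16.6% of the WT cells with Il2ra against 9.57%, and in 14.7% against 5.05% in KO-labelled, without thinning. The summed level of these 3 genes was 187 and 96.8 CPM in only-Tmem176b cells and 18.9 and 7.90 CPM in only-Ly6c2 cells. Most of it was Areg, with 690 and 403 UMIs in only-Tmem176b cells, whereas Il1rl1, the IL-33 receptor of these cells, had 3 and 5 UMIs there and 2 and 4 in only-Ly6c2 cells. The γδ T cell genes had a UMI in 96.3% and 97.9% of the Il2ra cells. The type 17 genes had a UMI in 95.9% of the Il2ra cells of WT and in 75.6% of those of KO-labelled. In cells without Il2ra the shares were 55.5% and 28.4%. The type 1 genes had a UMI in 26.0% and 70.1% of the Il2ra cells, against 58.6% and 86.8% of the cells without Il2ra. The summed level of 5 myeloid genes was 307 CPM in only-Tmem176b and 973 CPM in only-Ly6c2 cells of WT, and 252 and 181 CPM in KO-labelled. Most of it was Lyz2 and Cst3, which went opposite ways in both libraries. In the same order Lyz2 was at 32.0 and 724 CPM in WT and 23.7 and 44.0 CPM in KO-labelled. Cst3 was at 265 and 205 CPM in WT and 219 and 131 CPM in KO-labelled. Natural killer (NK) cells are known to express Il2rb, and a UMI of Ncr1, Klra8 or Klrb1c was present in 14.4% of only-Ly6c2 and 1.16% of only-Tmem176b cells of WT, and in 10.3% and 0.813% of those of KO-labelled. Their summed level was 70.3 and 4.54 CPM in WT and 41.0 and 1.97 CPM in KO-labelled. Most of it was Klrb1c, and Klra8 was at 0 in only-Tmem176b cells of WT and Ncr1 and Klra8 in those of KO-labelled. The part of these other cell types in the Il2ra and Il2rb results was not tested.

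The ligands of the family were nearly absent from the sorted cells. Il2 had 2 UMIs in WT and 10 in KO-labelled, and Il15 40 and 68. Il4 and Il13 had 0 in WT and 39 and 20 in KO-labelled, Il7 had 0 and 2, and Il21 and Il9 had none. Of the other receptor chains that share the common γ chain or Il4ra, Il7r, the IL-7 receptor chain, was plentiful and lower in only-Ly6c2 than in only-Tmem176b cells, by -1.17 (-1.26 to -1.07) in WT and -0.80 (-0.85 to -0.75) in KO-labelled. Il9r had 11 and 28 UMIs and Il13ra1 16 and 4.

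Of the 4 inhibitors of the pathway, Cish and Socs2, which are known to be induced by STAT5, went with Il2ra. From 73 and 1055 UMIs, Cish was at -2.59 (-2.96 to -2.25) in only-Ly6c2 over only-Tmem176b cells of WT, and at -2.68 (-2.90 to -2.46) in KO-labelled. Socs2 was at -2.73 (-3.26 to -2.24) and -1.74 (-2.02 to -1.48). Socs1 and Socs3 stayed within 2-fold, so 2 of 4 inhibitors were past 2-fold in each library, where 16.4% and 12.6% of all genes were, and the median of the 4 was -1.41 and -0.73.

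Of the 6 kinases and STATs, 1 was past 2-fold in each library, Stat5a, a share near that of all genes (16.4% and 12.6%), and it lay on the opposite side from Cish. Stat5a was higher in only-Ly6c2 cells by 1.01 (0.71 to 1.32) in WT and 1.08 (0.93 to 1.24) in KO-labelled, and Jak1 by 0.87 and 0.82. Jak3, Stat3, Stat5b and Stat6 stayed within 2-fold, and the median of the 6 was 0.49 and 0.30. Between the libraries as a whole the KO-labelled over WT ratio was 0.98 for Stat5a (0.87 to 1.09) and -0.93 for Cish (-1.03 to -0.83). Of 5 known target genes the survival factor Bcl2 was higher in only-Ly6c2 cells (1.33 in WT and 0.93 in KO-labelled), past 2-fold in WT alone, and Mcl1, Myc, Pim1 and Ccnd2 stayed within 2-fold, with a median of 0.09 and -0.18 over the 5.

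**Figure D5:**
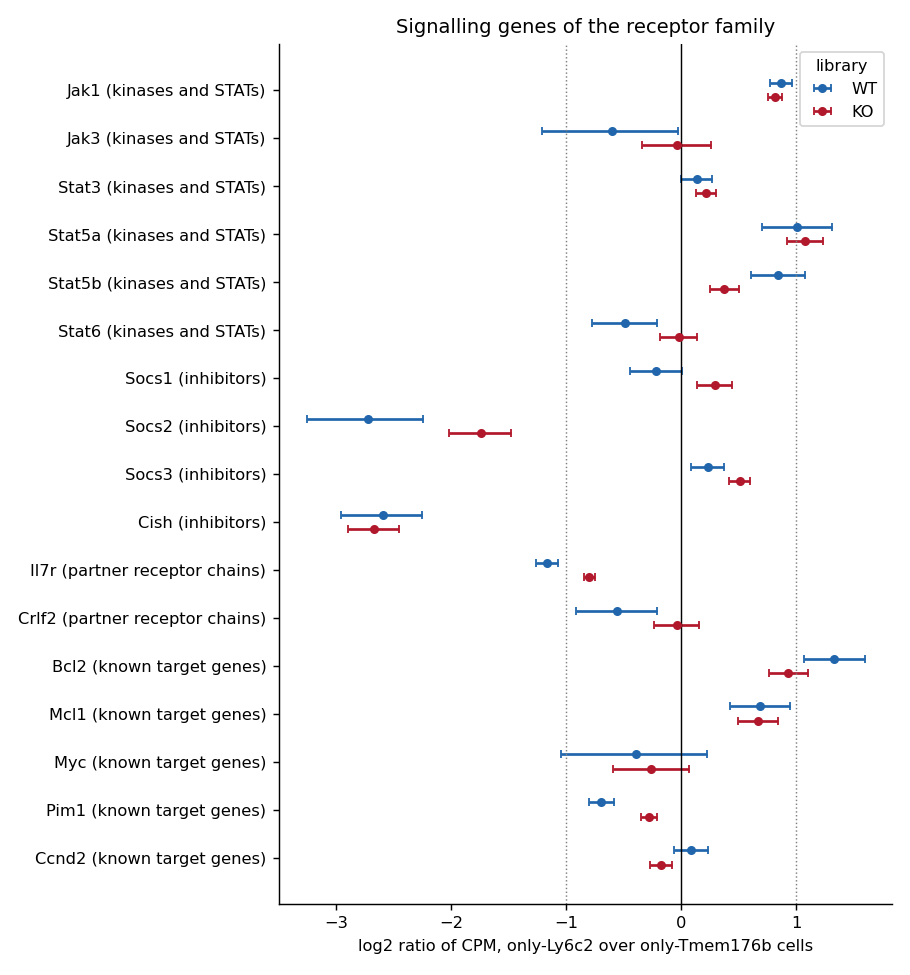
Log2 ratio of CPM in only-Ly6c2 over only-Tmem176b cells (x axis) for the signalling genes, inhibitors, other receptor chains and target genes (y axis) with at least 30 UMIs; blue WT, red KO (called KO-labelled in the text), bars 95% counting intervals, dotted lines 2-fold. Cish and Socs2 lie between -2.73 and -1.74, and Stat5a, Jak1 and Bcl2 lie between 0.82 and 1.33.

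The genes most like each receptor gene were sought over the 11 groups that combine library, Tcrg-V gene and Tmem176b or Ly6c2 UMIs, among 8178 genes with at least 100 UMIs. The measure was Pearson's r of log2 CPM, given as a description, since the groups share libraries and depth and are few. Il2ra was most like Ckb (r = 0.99), Ero1l (0.99) and S100a4 (0.98), and Il21r most like Gimap5, Tuba1a and Tmsb10 (0.96 each). Il2rb was most like Pvrig (0.92), Lcp1 (0.90) and Itgal (0.89), and Il2rg most like Krtcap2 (0.98), Ly6e (0.97) and Tor4a (0.97). For Il4ra they were Pdcd1lg2 (0.86), Rnaseh2c (0.86) and Ubxn11 (0.84), and for the sparse Il15ra Pmf1 (0.82), Prdx4 (0.81) and Cxcr4 (0.74).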

How the data were processed

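Single cells of 2 libraries, 1 per group, were analysed from matrices of UMI counts per gene and barcode, deposited by the authors after Cell Ranger processing against mm10 (GRCm38). The version is 7.0.0 in the file headers, 7.0 in the submitters' processing notes and an earlier one in the study's methods. The labels name a 3′ protocol and the methods a 5′ V(D)J kit. The authors' cell filter of the methods was applied to the counts (over 200 and under 4000 genes, under 10% mitochondrial UMIs), and no doublet caller was run. For each set of cells the UMIs were added up and given as CPM of that sum, with exact Poisson intervals. Ratios carry exact conditional and shares Clopper-Pearson 95% intervals, for counting error only, and a count of 0 was set against a limit of 3 counts. Genes with at least 30 UMIs over both sets were compared, and "past 2-fold" takes the place of a test. Thinning to 2000 UMIs (seed 1) left out 380 WT and 828 KO-labelled cells. The genes named were the 6 receptor genes, the genes that define sets, fixed lists and, per receptor gene, the 3 most similar genes, leaving out TCR, mitochondrial and Gm or Rik genes. Receptor genes and lists were chosen with earlier results of these data known. Of the gene identifiers, 32158 matched GENCODE M21 (GRCm38), and 5 of 6 receptor genes the RefSeq promoter table (not Il2rb). The steps were tested on simulated counts. Python 3.11.15, numpy 2.4.6, scipy 1.17.1, pandas 2.3.3 and matplotlib 3.10.9 were used. Other filters, sets, scalings and depths were tried as alternatives.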

Additional observations from a re-analysis of the deposited data

Results flagged for a closer look

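In the unthinned sums, the Ly6c2 contrast of Il2rb had opposite signs in the 2 libraries. Il2rb encodes the β chain of the IL-2 and IL-15 receptors. The log2 ratio of cells with a Ly6c2 UMI over cells with none was -0.17 in WT and 0.31 in KO-labelled, with both intervals clear of 0. The difference between the ratios was 0.48 (0.38 to 0.58, counting error only). With 1 library per group this difference was not tested. The median log2 ratio of all genes was -0.09 in each library, and 41.4% of genes lay below Il2rb in WT. Both signs held under 9 alternatives, with the WT ratio between -0.18 and -0.05. After thinning, WT cells with 0, 1, 2 and 3 or more Ly6c2 UMIs had 713, 705, 565 and 679 CPM of Il2rb. Those intervals overlapped, so no WT difference beyond counting error was seen at equal depth. The KO-labelled classes had 560, 648, 785 and 764 CPM.

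The barcodes that the cell filter left out also held UMIs of the 6 receptor genes. In WT 100% of the 15 barcodes left out had at least 1 (78.2 to 100), where a count of 0 would allow up to 20%. In KO-labelled 85.2% of 54 did (72.9 to 93.4), where a count of 0 would allow up to 5.56%. Of the kept cells, 95.9% in WT and 97.2% in KO-labelled had at least 1. The share of the barcodes left out was thus near that of kept cells in WT and below it in KO-labelled.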

How the results depend on the processing

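With 1 library per group nothing could be left out, and no value here has a replicate check. No paired analysis was possible because a single library stood for each group. Il2ra kept its direction and stayed past 2-fold under all 9 alternatives to the cells, totals and scaling for only-Ly6c2 over only-Tmem176b cells, with log2 ratios between -5.11 and -3.66 in WT and between -4.32 and -3.84 in KO-labelled. Il21r kept its direction there as well, between 0.89 and 1.12 in WT, past 2-fold in 3 of 9, and between 1.07 and 1.33 in KO-labelled, past 2-fold in 9 of 9. Il2rb in KO-labelled had the same sign in 4 of 9 and lay between -0.09 and 0.09.

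Of the counts of genes past 2-fold and the shares recomputed under an alternative, 124 stayed within 1.5 times or within the counting interval of the value reported and 17 did not. Of the ratios of single genes 598 stayed within the counting interval, and 43 of 666 changed sign, of which 1 had been past 2-fold. For the libraries as a whole, 1 of the 6 genes (Il2ra) in place of 0 passed 2-fold with cells of 2000 to 5000 UMIs, without the 5% of cells with most UMIs, and after thinning. For Tmem176b over none in WT, 1 in place of 2 passed without the cell filter, with ratios shifted to a median of 0, with cells of 2000 to 5000 UMIs and after thinning, and in KO-labelled 2 in place of 1 passed when 2 UMIs were required of the grouping gene. For only-Ly6c2 over only-Tmem176b cells in WT, 2 in place of 1 passed with 2 UMIs required, with totals free of mitochondrial and ribosomal protein genes, and without non-T cells. For only-Ly6c2 cells between the libraries, 0 in place of 1 passed with 2 UMIs required, with cells of 2000 to 5000 UMIs, without the 5% of cells with most UMIs, after thinning, and with at least 100 UMIs per gene. The Il2ra ratio there, which rests on 12 WT UMIs, changed sign to -0.16 after thinning. The share of cells with Il2ra, Il2rb and Il2rg in only-Tmem176b over only-Ly6c2 cells of KO-labelled was 14.9 times at 2000 UMIs and 8.61 times at 1000 UMIs, the latter from 9 only-Ly6c2 cells. The cause of these changes was not tested. Depth limits Il15ra most, with 39 and 94 UMIs.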
